A study of Mus musculus and Meriones unguiculatus with 4 samples.

Results

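The Fgf ligands of the tooth germ considered here are Fgf3, Fgf4, Fgf8, Fgf9, Fgf10 and Fgf20, together with Fgfbp1, which encodes a secreted protein that binds Fgf ligands. The 7 genes were taken by symbol, ignoring case, and each was found on 1 row of both species' tables, out of 25745 gerbil genes and 27632 mouse loci. RNA had been sequenced from the enamel knot region in tooth germs of the lower jaw, taken from wild-type gerbil embryos at embryonic day 15 (2 libraries) and wild-type mouse embryos at embryonic day 13 (2 libraries). The region was labelled as epithelial cells and was cut by laser microdissection from fixed frozen sections. The sources used here do not state the number of animals behind a library. The libraries are called E23 and E21 for gerbil and SEK and PEK for mouse, after the endings of the column names, which the labels do not explain. E23 and E21 differ from the labelled embryonic day. Should the endings mark separate stages or sites, a species has 1 library of each, and the SE values below then hold that contrast too.

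The enamel knot is a cluster of epithelial cells in the tooth germ that stops dividing itself and sends signals to the epithelium and mesenchyme around it. Fgf ligands are secreted growth factors that are held by heparan sulfate and act through receptor tyrosine kinases. In mouse tooth development, Fgf8 and Fgf9 act early from the oral epithelium, Fgf4, Fgf9 and Fgf20 are made in the knot, Fgf10 is made in the dental mesenchyme, and Fgf3 is made in both. Fgf4 is known in mouse as a target of the Wnt effector Lef1, and Fgf20 as a gene downstream of Wnt and Eda signalling. Fgfbp1 releases Fgf ligands from the heparan sulfate of the matrix.

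Values are given as levels, which are the authors' TPM for gerbil and FPKM for mouse, both per length, rescaled to 1000000 over 13324 genes matched by symbol. Before rescaling, the matched genes summed to 117661 TPM in E23 and 132639 in E21, against 488142 FPKM in SEK and 439762 in PEK. Gerbil levels are therefore scaled up more from the deposited values than mouse levels. A single row held 33.8% of all TPM in E23 and 29.9% in E21. The authors normalized each table on its own. Differences between species are gerbil minus mouse on log2(level + 1), after a trend with transcript length had been removed from each library. The transcript lengths are those of the mouse annotation and were used for the gerbil libraries too. A gene is called when both libraries of one species lie at least 2-fold above both of the other on that corrected scale. Species were not compared by a test: with 2 libraries each, the smallest two-sided p of an exact permutation is 0.333. The length correction is large. Before it, with libraries centred only, the median difference was -1.80 in the shortest 1017 of the 10161 kept genes and 1.43 in the longest 1016. Each member is therefore also given with centring only. For mouse the depth is unknown, and for gerbil it was not analysed here. In bulk RNA, fewer cells of a type and less RNA per cell cannot be told apart.

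Fgf3 and Fgf4 are neighbours, and their promoters are shown with that of Fgfbp1 because Fgf4 and Fgfbp1 were called higher in mouse while Fgf3, beside Fgf4, was not. In the gerbil table both genes lie on the plus strand of 1 scaffold, 19367 bases apart. By GRCm38 positions in the mouse table, Fgf3 (ENSMUSG00000031074) lies at positions 144838083 to 144844436 and Fgf4 (ENSMUSG00000050917) at 144847367 to 144865243 of chromosome 7, both on the plus strand. The gap between the mouse rows is 2930 bases, and 16949 bases when taken to the RefSeq start of Fgf4, which lies inside its row. RefSeq promoter entries (GRCm38.p6) were found for 5 of the 7 members. The 250 bases before the RefSeq start are printed 5′ to 3′ for Fgf4 (chr7:144861136-144861385, plus strand), Fgf3 (chr7:144838362-144838611, plus strand) and Fgfbp1 (chr5:43981800-43982049, minus strand). Capitals mark the motifs searched on both strands, which were the TATA-box letters TATAAA and the related TATATA, the GC-box letters GGGCGG, and the Lef and Tcf site letters CTTTGA and CTTTGT.
Fgf4: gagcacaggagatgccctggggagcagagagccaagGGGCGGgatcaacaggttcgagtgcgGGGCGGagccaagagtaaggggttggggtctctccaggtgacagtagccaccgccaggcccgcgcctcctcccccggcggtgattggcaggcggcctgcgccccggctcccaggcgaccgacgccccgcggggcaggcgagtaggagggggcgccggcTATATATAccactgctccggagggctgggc
Fgf3: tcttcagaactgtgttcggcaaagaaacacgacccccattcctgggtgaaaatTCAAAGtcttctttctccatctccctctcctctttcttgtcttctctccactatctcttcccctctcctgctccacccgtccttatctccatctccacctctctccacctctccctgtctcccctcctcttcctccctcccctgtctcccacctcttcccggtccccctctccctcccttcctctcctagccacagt
Fgfbp1: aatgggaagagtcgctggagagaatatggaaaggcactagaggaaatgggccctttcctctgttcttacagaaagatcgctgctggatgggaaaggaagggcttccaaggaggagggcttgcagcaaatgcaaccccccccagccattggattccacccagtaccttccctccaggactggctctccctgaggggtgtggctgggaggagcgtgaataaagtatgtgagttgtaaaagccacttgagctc

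The Fgf4 window held 2 copies of GGGCGG and 2 overlapping matches of TATATA. The Fgf3 window held 1 match of CTTTGA, on the minus strand, and the Fgfbp1 window none of the 5 motifs. Of all 32851 mouse promoter entries, 32.7% held GGGCGG, 5.25% TATATA, 13.8% CTTTGA, 16.5% CTTTGT and 12.4% TATAAA. GC made up 71.2% of the Fgf4 window, 55.2% of the Fgf3 window and 53.6% of the Fgfbp1 window, against a median of 52.4% over all entries. A match is a description of letters and not of binding.

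The mouse rows are assembled loci, and some start well before the RefSeq start of the gene. The Fgf4 locus begins 14019 bases before it and the Fgf10 locus 44908 bases before it, while the Fgf3 locus begins 529 bases and the Fgf9 locus 2139 bases before it. The GENCODE M21 gene starts at the same position as the locus for all 4. The gerbil genes span less sequence than the mouse loci, at 1492 bases in gerbil against 17877 in mouse for Fgf4 and 747 bases in gerbil against 2922 in mouse for Fgfbp1. Fgf9 spans 38095 bases in gerbil against 41791 in mouse, and Fgf10 77546 bases in gerbil against 122366 in mouse. How far these gene models set the levels was not tested.

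Of the 7 members, 1 was called higher in gerbil and 4 were called higher in mouse, while 13.3% of all kept genes were called higher in gerbil and 14.7% higher in mouse. All 7 passed the filter, which asked for a level of 1 or more averaged over the 4 libraries, and the lowest mean in a species was 1.302, that of Fgfbp1 in gerbil. Fgf4, Fgf9, Fgf20 and Fgfbp1 were called higher in mouse and Fgf8 higher in gerbil, while Fgf3 and Fgf10 were not called. The median difference of the members was -1.34, against -0.02 over all kept genes. With centring only, 0 were called higher in gerbil and 4 higher in mouse, which were Fgf3, Fgf4, Fgf20 and Fgfbp1, against 18.4% and 19.4% of all kept genes.

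**Figure D1:**
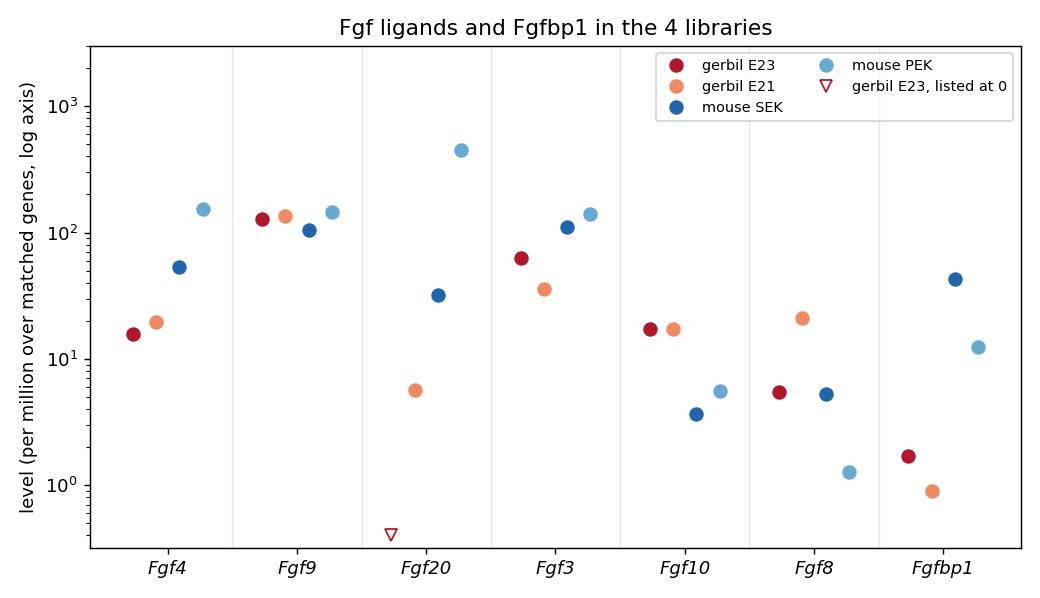
Levels of the 7 members in the 4 libraries on a log axis, with 1 point per library and an open triangle where a gene is listed at 0. Fgf9 lies between 105 and 145 in every library, while Fgf20 lies between 5.65 in gerbil E21 and 454 in mouse PEK and is listed at 0 in gerbil E23.

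Among the epithelial ligands of the knot, Fgf4 was lower in gerbil under every setting tried. Its level was 15.8 in E23 and 19.5 in E21 for gerbil, against 53.7 in SEK and 155 in PEK for mouse. Both gerbil libraries lay below both mouse libraries, and the mouse libraries differed more from each other than the gerbil ones did. The corrected difference was -2.84 ± 0.74 (SE, n = 2 libraries per species), a 7.16-fold difference, and -2.95 with centring only. The nearest libraries of the species stood 3.97-fold apart on the corrected scale. Leaving out 1 library at a time gave differences between -3.56 and -2.15, all called. With a library left out fewer values must lie apart, so a call can end only through the refitted trend. These calls are therefore a weak check. As deposited, Fgf4 was at 1.86 and 2.58 TPM in gerbil E23 and E21, so the gerbil values rest on a low signal.

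Fgf20, a ligand of the same subfamily as Fgf9, had the widest range of the members. It was listed at 0 in E23 and was at 5.65 in E21 for gerbil, against 31.8 in SEK and 454 in PEK for mouse. Both mouse libraries were above both gerbil libraries, and Fgf20 had a higher level than 96.7% of kept genes in mouse PEK. Since E23 is at 0, no fold is given against it. Without E23 the corrected difference was -3.60 and was called. In every other setting E23 enters as its 0 plus the pseudocount, so the size of the difference is set in part by the pseudocount. The difference was -4.99 ± 2.46 with the pseudocount of 1 and -6.70 ± 3.59 with a pseudocount of 0.1, called in both. The call held without PEK and without SEK. As without E23, it could end there only through the refitted trend. It ended with levels rescaled over all rows of each table. In E23, 2.74% of kept genes were listed at 0, and in E21 3.73%.

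Fgf9 is the member whose levels differed least between the species, and its call depends on the correction. Its level was 127 in E23 and 136 in E21 for gerbil, against 105 in SEK and 145 in PEK for mouse. These levels overlap between the species. After the length correction the difference was -1.06 ± 0.04 (SE, n = 2 each) and the nearest libraries were 2.01-fold apart, just past the 2-fold rule. With centring only the difference was -0.54 and not called, with neither centring nor correction it was 0.10, and without mouse SEK it was -1.01 and not called. Fgf9 was above 82.4% and 82.8% of kept genes in gerbil E23 and E21, and above 82.0% and 87.3% in mouse SEK and PEK.

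Fgf3, a ligand of knot and mesenchyme, was at 63.2 in E23 and 35.4 in E21 for gerbil, against 111 in SEK and 139 in PEK for mouse. Both gerbil libraries lay below both mouse libraries. The corrected difference of -1.34 ± 0.46 (SE, n = 2 each) was not called, as the nearest libraries were 1.65-fold apart. It was called higher in mouse with centring only (-2.01), without gerbil E23 (-1.68) and without mouse SEK (-1.55), and was -0.88 and not called without gerbil E21. With a GC trend removed as well it was -0.60 ± 0.62 and not called, and the libraries of the species overlapped. Fgf15, which lies after Fgf4 on chromosome 7 at 144896531 to 144900953, is named after its values were seen. It was at 32.5 and 59.0 in gerbil E23 and E21 and at 121 and 310 in mouse SEK and PEK. Its difference of -1.68 ± 0.88 was not called, and with centring only it was called higher in mouse (-2.76). The gerbil Fgf15 lies on the same scaffold as Fgf3 and Fgf4. On levels without the length correction, all 3 neighbours were lower in both gerbil libraries than in either mouse library.

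Fgf10, the mesenchymal ligand, was at 17.3 in both E23 and E21 for gerbil, against 3.63 in SEK and 5.58 in PEK for mouse. Both gerbil libraries lay above both mouse libraries on these levels. The corrected difference was 0.68 ± 0.06 (SE, n = 2 each) and was not called. It was 1.10 with centring only, also not called, and 1.73 and called higher in gerbil with neither centring nor correction. With a GC trend removed as well it was -0.01, so no direction is given for Fgf10.

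Fgf8, which acts at the start of tooth formation, was at 5.44 in E23 and 21.03 in E21 for gerbil, against 5.27 in SEK and 1.26 in PEK for mouse. Gerbil E23 and mouse SEK stood at almost the same level. The corrected difference of 2.61 ± 1.07 (SE, n = 2 each) was called higher in gerbil, with the nearest libraries 2.21-fold apart. The call ended with centring only (1.03), with neither centring nor correction (1.66) and with no filter on low values (2.04). As deposited, the highest values were 2.79 TPM in gerbil E21 and 2.57 FPKM in mouse SEK. The lower ones were 0.64 TPM in gerbil E23 and 0.554 FPKM in mouse PEK, so the call rests on a low signal.

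Fgfbp1 was at 1.70 in E23 and 0.905 in E21 for gerbil, against 43.1 in SEK and 12.4 in PEK for mouse. The gerbil values are at the low end, above 6.95% and 6.03% of kept genes in E23 and E21. The corrected difference was -3.40 ± 0.85 (SE, n = 2 each), a 10.5-fold difference, and -4.06 with centring only. It was called without each library in turn, at -4.23 to -2.60, where a call can end only through the refitted trend. It was not called when levels were rescaled over all rows of each table (-1.66). As deposited it was at 0.20 and 0.12 TPM in gerbil E23 and E21, where the rounding of the table to steps of a hundredth already limits the value.

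**Figure D2:**
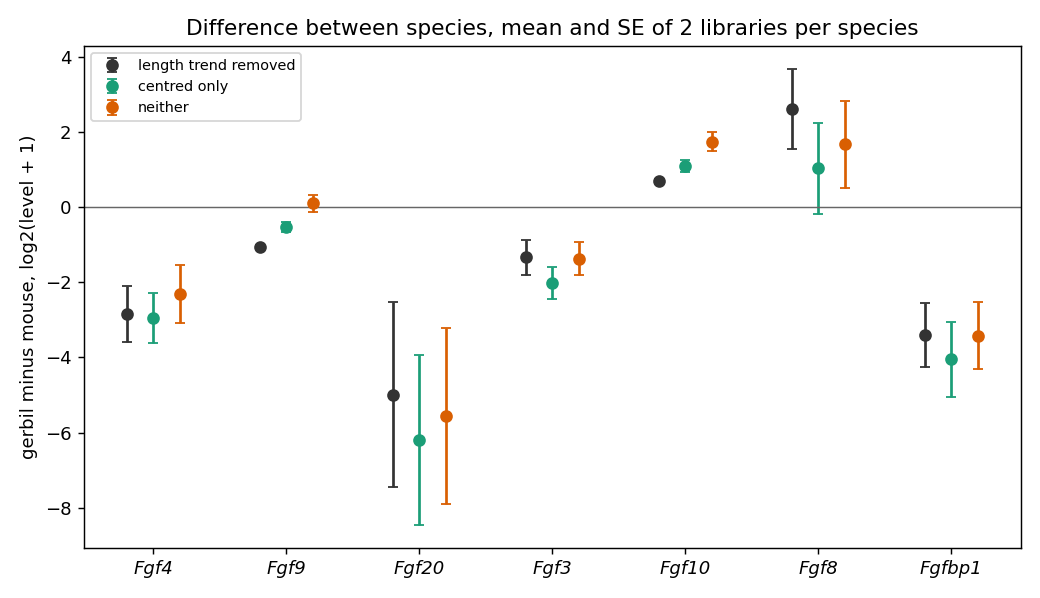
Gerbil minus mouse difference of each member on log2(level + 1), with the length trend removed, with centring only and with neither, as mean and SE of 2 libraries per species. Fgf4, Fgf20 and Fgfbp1 lie below -2 in all 3 settings, Fgf9 lies between -1.06 and 0.10, and Fgf20 includes the gerbil E23 value listed at 0.

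The make-up of the ligand signal differed between the libraries. Within a library, the share of a ligand in the summed level of the 6 ligands does not depend on the scaling between the tables. The summed level was 229 in E23 and 235 in E21 for gerbil, against 310 in SEK and 899 in PEK for mouse. Fgf9 held the largest share in both gerbil libraries, at 55.5% in E23 and 57.9% in E21, against 33.7% in SEK and 16.1% in PEK for mouse. Fgf20 made up 0% of the sum in E23 and 2.40% in E21 for gerbil, against 10.2% in SEK and 50.5% in PEK for mouse.

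Fgf3 held 27.7% in E23 and 15.1% in E21 for gerbil, against 35.9% in SEK, where it led, and 15.5% in PEK for mouse. These shares overlap between the species. Fgf4 held 6.91% in E23 and 8.27% in E21 for gerbil, against 17.3% in SEK and 17.2% in PEK for mouse. With the length trend removed, the share of Fgf9 was 47.3% in gerbil E23 and 47.1% in E21, against 48.0% in mouse SEK and 19.4% in PEK, and no longer separated the species.

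**Figure D3:**
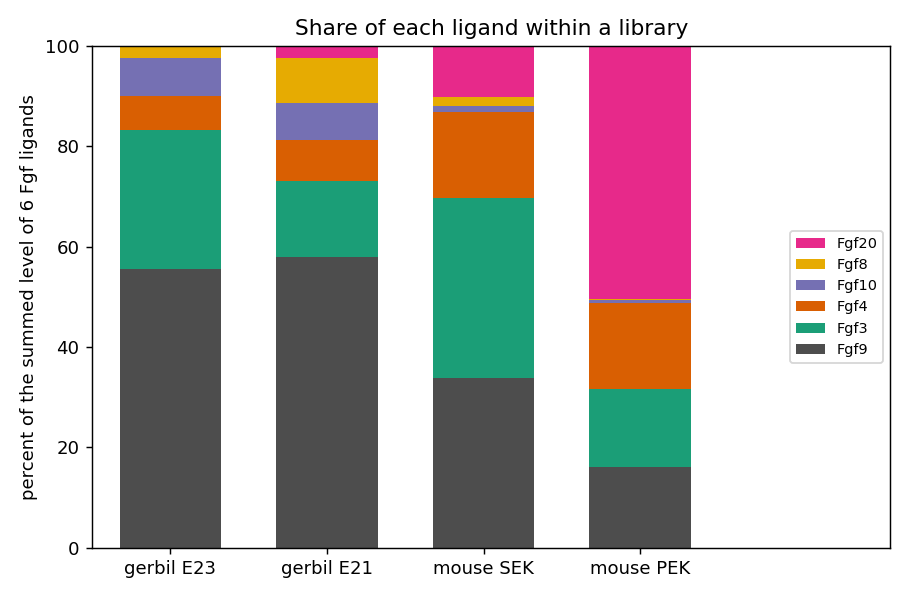
Stacked bars of the percent that each of the 6 ligands holds in their summed level, 1 bar per library, on levels without the length correction. Fgf9 fills 55.5% and 57.9% of the gerbil bars, and Fgf20 fills 50.5% of the mouse PEK bar.

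Set against Shh, the hedgehog ligand of the knot, in the same library, the ratio of Fgf4 was 0.0133 in E23 and 0.0202 in E21 for gerbil, against 0.0881 in SEK and 0.164 in PEK for mouse. The Fgf3 ratio was 0.0533 and 0.0368 in gerbil E23 and E21, against 0.183 and 0.147 in mouse SEK and PEK. Both ratios to Shh were lower in both gerbil libraries. The Fgf9 ratio was 0.107 and 0.142 in gerbil E23 and E21, against 0.172 and 0.153 in mouse SEK and PEK. Set against Krt14, a keratin gene of basal epithelium, the species were not separated for Fgf3, whose ratio was 0.0461 and 0.0344 in gerbil E23 and E21, against 0.0392 and 0.0801 in mouse SEK and PEK. The Fgf4 ratio to Krt14 was 0.0115 and 0.0189 in gerbil E23 and E21, against 0.0189 and 0.0890 in mouse SEK and PEK, so that E21 and SEK met. All these ratios are on levels without the length correction.

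Between the 2 mouse libraries, Fgf20 and Fgf4 were lower in SEK and Fgf8 and Fgfbp1 were higher, each by 2-fold or more. There is 1 library on each side, so these differences have no replicate check. The corrected SEK minus PEK difference was -4.10 for Fgf20, -1.46 for Fgf4, 1.09 for Fgf8 and 1.61 for Fgfbp1. It stayed within 2-fold for Fgf3 (-0.40), Fgf9 (0.07) and Fgf10 (-0.11). Of all kept genes, 8.42% were at least 2-fold lower and 7.44% at least 2-fold higher in SEK. On the level scale Fgf20 was 14.3-fold and Fgf4 2.88-fold lower in SEK, while Fgfbp1 was 3.48-fold and Fgf8 4.19-fold higher in SEK.

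Between the gerbil libraries, Fgf8 was lower in E23 by 1.83 on the corrected log2 scale, a 3.87-fold difference in level. Fgf20 was listed at 0 in E23 and was at 5.65 in E21. The other 5 members stayed within 2-fold, with Fgf3 at 0.83, Fgfbp1 at 0.55, Fgf10 at 0.03, Fgf9 at -0.03 and Fgf4 at -0.24. Of all kept genes, 3.68% were at least 2-fold lower and 6.03% at least 2-fold higher in E23. On this corrected scale Fgf9 and Fgf10 differed least between libraries in both species. With centring only the SEK minus PEK difference was least for Fgf3 (-0.13), followed by Fgf9 (-0.27) and Fgf10 (-0.31).

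**Figure D4:**
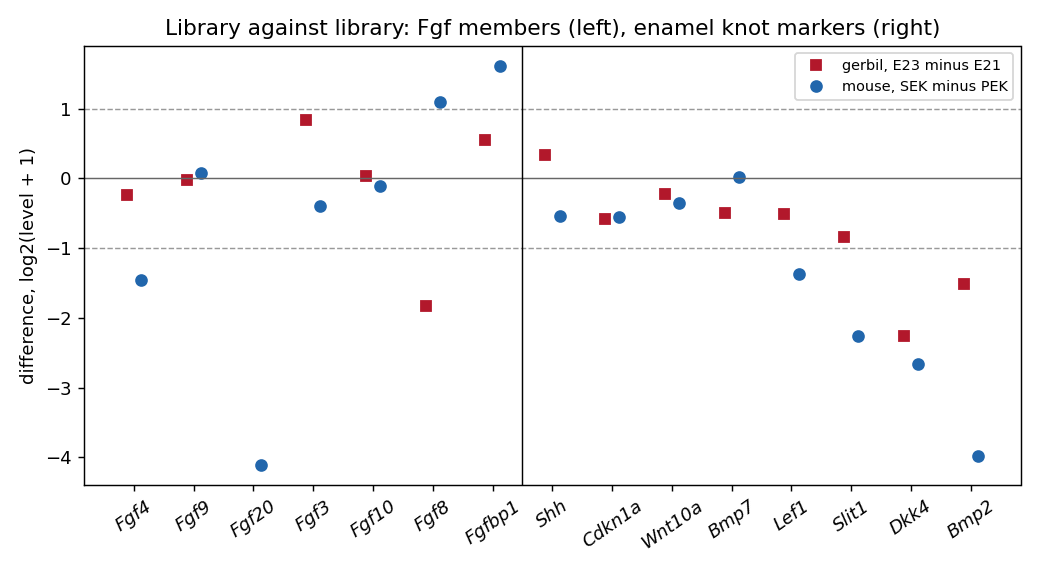
Corrected log2 differences between the 2 libraries of a species, E23 minus E21 for gerbil and SEK minus PEK for mouse, for the members and for 8 enamel knot markers, with dashed lines at 2-fold. In mouse, Fgf20 (-4.10) and Bmp2 (-3.98) lie lowest, and gerbil Fgf20 is not drawn as it is listed at 0 in E23.

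Of 10 listed knot markers 8 were kept, of which 4 were at least 2-fold lower in mouse SEK than in PEK, as Fgf20 and Fgf4 were, and 0 were higher, against 8.42% and 7.44% of all kept genes. The 4 were Bmp2 (-3.98), the Wnt antagonist gene Dkk4 (-2.66), Slit1 (-2.26) and Lef1 (-1.37). The other 4 stayed within 2-fold, with the cell cycle inhibitor gene Cdkn1a at -0.56, Shh at -0.54, Wnt10a at -0.36 and Bmp7 at 0.02. In gerbil, 2 of the 8 were at least 2-fold lower in E23, namely Dkk4 (-2.26) and Bmp2 (-1.52), against 3.68% of all kept genes. Between the species, 0 of the 8 were called higher in gerbil and 2 higher in mouse, against 13.3% and 14.7% of all kept genes. The 2 were Cdkn1a (-5.07 ± 0.41) and Wnt10a (-3.55 ± 0.21), called in the same direction as Fgf4 and Fgf20. Shh was not called (0.02 ± 0.32). The summed level of the knot markers was 1728 in E23 and 1815 in E21 for gerbil, against 2697 in SEK and 4484 in PEK for mouse. Cdkn1a and Wnt10a made up a large part of the mouse sums and little of the gerbil sums. Cdkn1a was at 37.1 and 60.0 in gerbil E23 and E21, against 1019 and 1565 in mouse SEK and PEK. Wnt10a was at 58.0 and 71.6 in gerbil E23 and E21, against 618 and 744 in mouse SEK and PEK. Their part in the Fgf values was not tested.

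Markers of other cells were present beside those of epithelium. Krt14 was at 1373 and 1030 in gerbil E23 and E21, against 2843 and 1739 in mouse SEK and PEK. Epcam, Cdh1, Krt14, Krt5 and Trp63, the 5 epithelial markers used, summed to 6978 in E23 and 8101 in E21 for gerbil, against 6097 in SEK and 4173 in PEK for mouse. Krt5 held most of the gerbil sums, at 4586 in E23 and 6042 in E21. Of the 5, 2 were called higher in gerbil, Krt5 (1.46 ± 0.27) and Cdh1 (1.49 ± 0.06), and 0 higher in mouse, against 13.3% and 14.7% of all kept genes. With centring only, Cdh1 was called higher in gerbil and Epcam higher in mouse, against 18.4% and 19.4%. The 11 dental mesenchyme markers, all kept, summed to 2408 in E23 and 1493 in E21 for gerbil, against 1438 in SEK and 1232 in PEK for mouse, so transcripts of these genes were present in every library. Vim, Col1a1 and Col3a1 held most of the gerbil sums, at 543, 694 and 888 in E23 and 529, 257 and 448 in E21. Of these 11, 0 were called higher in gerbil and 2 were called higher in mouse, Msx1 and Barx1, against 13.3% and 14.7% of all kept genes. With centring only, 2 were called higher in gerbil (Col3a1 and Pdgfra) and 3 higher in mouse (Msx1, Barx1 and Twist1), against 18.4% and 19.4%.

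Muscle and endothelial markers differed between libraries more than the epithelial ones. Of 6 muscle markers, 5 were on 1 row in each table, and these summed to 6.54 in E23 and 3.09 in E21 for gerbil, against 360 in SEK and 90.1 in PEK for mouse, with Myod1 listed at 0 in both gerbil libraries. Of these 5, 0 were called higher in gerbil and 3 higher in mouse, against 13.3% and 14.7% of all kept genes. With centring only, 0 were called higher in gerbil and all 5 higher in mouse, against 18.4% and 19.4%. The summed muscle level ranked the libraries in the same order as Fgfbp1 did, and so did Krt14. Of the single muscle markers, Mylpf and Myog followed that order. Myod1 was at 0.548 in SEK and 4.33 in PEK, and Tnnt3 and Myh3 were lower in E23 than in E21. Of 4 endothelial markers, the 3 on 1 row in each table (Pecam1, Cdh5 and Kdr) summed to 84.8 in E23 and 1.13 in E21 for gerbil, against 8.50 in SEK and 3.88 in PEK for mouse. Of 5 blood and immune markers only Ptprc and C1qa had levels in both species, and these 2 summed to 11.2 in E23 and 2.79 in E21 for gerbil, against 3.26 in SEK and 1.09 in PEK for mouse. The part of these cells in the Fgf values was not tested.

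Of the receptors, Fgfr1 and Fgfr2 had higher levels than every one of the 6 ligands in each library, except that Fgf20 was higher in mouse PEK. Fgfr1 was at 447 and 675 in gerbil E23 and E21, against 199 and 289 in mouse SEK and PEK, and its corrected difference of -0.30 ± 0.29 was not called. Fgfr2, whose b form receives Fgf3 and Fgf10 in epithelium, was at 357 and 354 in gerbil E23 and E21, against 126 and 160 in mouse SEK and PEK. Its mouse locus carries no Ensembl ID, so it has no transcript length and no corrected difference. Fgfr3 (-0.41 ± 0.77) and Fgfr4 (0.99 ± 0.54) were not called, with Fgfr4 at 5.96 or less in every library. Fgfrl1, a receptor that lacks the kinase domain, was called higher in mouse (-1.56 ± 0.36), at 14.4 and 8.97 in gerbil E23 and E21, against 26.1 and 32.2 in mouse SEK and PEK.

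Of the feedback targets, genes that Fgf signalling induces or that restrain it, 9 of 13 were kept, of which 0 were called higher in gerbil and 1 higher in mouse, against 13.3% and 14.7% of all kept genes. With centring only, 2 were called higher in gerbil, Spred1 (2.40) and Il17rd (2.61), and 0 higher in mouse, against 18.4% and 19.4%. Dusp6, which encodes a phosphatase of the Erk kinases, was at 671 and 776 in gerbil E23 and E21, against 221 and 703 in mouse SEK and PEK (0.42 ± 0.78, not called). Spry2, a Sprouty inhibitor gene, was at 238 and 322 in gerbil E23 and E21, against 57.9 and 129 in mouse SEK and PEK (1.81 ± 0.66, not called). Spry1 (-0.67 ± 0.48) and the Ets factor gene Etv4 (-0.75 ± 0.44) were not called either. Etv1, another Ets factor gene, was called higher in mouse (-1.52 ± 0.08), but was not called with centring only (-0.32). Spry4 and Etv5 were not on 1 row in each table and have no difference. Between the mouse libraries 4 of the 9 kept targets were at least 2-fold lower in SEK, among them Dusp6 (-1.56) and Spry2 (-1.24), and 0 were higher, against 8.42% and 7.44% of all kept genes.

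**Figure D5:**
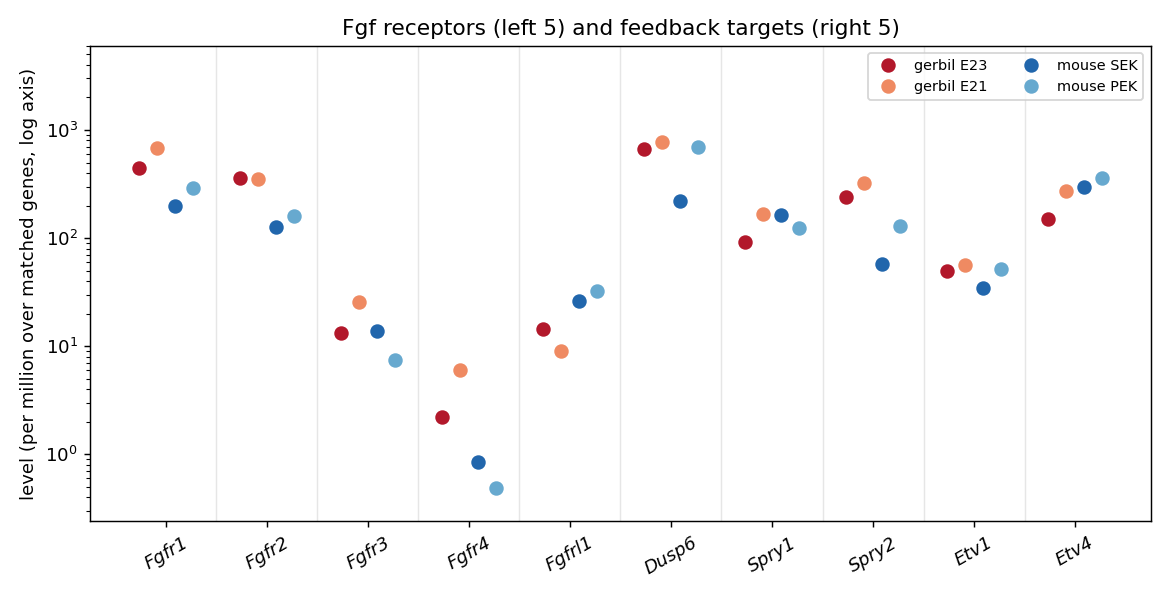
Levels of 5 Fgf receptor genes and 5 feedback target genes in the 4 libraries on a log axis, with 1 point per library. Fgfr1 and Fgfr2 lie at 354 or more in both gerbil libraries and at 289 or less in both mouse libraries on these levels, which carry no length correction, and Dusp6 is lowest in mouse SEK, at 221.

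Of the 49 listed pathway genes other than the members, 32 were kept, of which 2 were called higher in gerbil and 3 higher in mouse, against 13.3% and 14.7% of all kept genes. The median difference was -0.33, against -0.02 over all kept genes. The genes called higher in gerbil were Fgf11 (3.73 ± 0.65), which encodes an intracellular Fgf homolog, and Sos1 (1.58 ± 0.07), which encodes an exchange factor of Ras. The genes called higher in mouse were Fgfbp3 (-2.71 ± 0.48), Fgfrl1 and Etv1. Fgf11 was at 132 and 112 in gerbil E23 and E21, against 3.05 and 9.10 in mouse SEK and PEK. With centring only, 6 were called higher in gerbil and 3 higher in mouse, against 18.4% and 19.4% of all kept genes. With 1 library left out, 4 to 6 were called higher in gerbil (5 without E23, 4 without E21, 4 without SEK and 6 without PEK) and 3 to 6 higher in mouse (6 without E21 and 5 without PEK). Rescaled over all rows, 1 was called higher in mouse. For these leave-out and rescaled settings the share of all kept genes called was not computed. Of the 6 adaptor genes 1 was called, and of the 5 kept heparan sulfate genes 0 were.

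Genes with the profile most like that of a member were sought among 8091 kept genes whose mean level was 10 or higher, by the Euclidean distance between corrected log2 levels centred on the gene's mean, over the 4 libraries. Nearest to Fgf20 was Ltb, which encodes lymphotoxin beta, at a distance of 0.14, followed by the Wnt target gene Sp5 (1.65) and Ier3 (2.06). Ltb was at 0.680 and 9.27 in gerbil E23 and E21, against 70.5 and 1021 in mouse SEK and PEK. Nearest to Fgf4 were Kifc2 (0.22), Ly6g6e (0.38) and Pde4a (0.41), and nearest to Fgf8 were Sema3d (0.29), Pcx (0.46) and Anxa8 (0.71). Nearest to Fgfbp1 were BC004004 (0.18), Aen (0.22) and Tsn (0.37). For Fgf3 they were Tnfaip8, Arhgap28 and Rgl1 (0.08 to 0.17), for Fgf9 Son, Secisbp2 and Mcat (0.05 to 0.07) and for Fgf10 Man1b1, Epg5 and Neo1 (0.04 to 0.06).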

How the data were processed

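RNA sequencing libraries (SMARTer mRNA-Seq kit, per the labels' protocols) of the enamel knot region were used, 2 per species. Tools listed in the submitters' processing notes are RSEM 1.3.1, STAR 2.7.1a and cutadapt 2.8, and builds are mm10 and GRCm38, all without roles. For gerbil, no build is given in the sources used here. The gerbil values are TPM per gene and the mouse values FPKM per assembled locus, both deposited by the authors, per the file headers. The gerbil table has 4 more per-sample columns (read counts and RPKM) that stay out of this work, so the planned count intervals were not made.

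The planned count model was not used, since the mouse table holds FPKM. Genes were matched by symbols that occur once in each table, without LOC, Gm and Rik names, and each library was rescaled to 1000000 over them. Log2(level + 1) was taken, which understates differences of low genes. A mean level of 1 or more and a GENCODE M21 exon-union length were required. In each library, gerbil ones included, the median deviation from the gene's mean in 40 bins of this mouse length was subtracted. The procedure was tested on simulated data with a smooth length trend and a small spread between libraries. Only genes with higher mean levels than Fgf8, Fgf10 and Fgfbp1 were scored, so that test does not cover these members. Python 3.11.15, numpy 2.4.6 and pandas 2.3.3 were used. All 7 members were named, with the called pathway genes, the receptors, 6 feedback targets and the 3 nearest genes of each member. One listed epithelial marker is not reported here. Other genes named are markers or are marked as chosen later. The members and lists were chosen with earlier results of these data known. Labels do not say that the 2 libraries of a species come from separate animals, so their spread may be technical.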

Additional observations from a re-analysis of the deposited data

How the results depend on the processing

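Fgf4 kept its direction and its call under every alternative run. Without the length correction but centred, Fgf3 became called (-2.01), the Fgf8 (1.03) and Fgf9 (-0.54) calls ended, 0 members were higher in gerbil and 6 pathway genes were. With neither correction nor centring Fgf9 changed sign (0.10), the Fgf8 call ended (1.66), Fgf10 was called higher in gerbil (1.73), and 8 pathway genes were. With GC also removed Fgf10 was -0.0086, and Fgf3 was -0.60 ± 0.62 and not called. With no filter on low values the Fgf8 (2.04) and Fgf9 (-0.85) calls ended, 0 members were higher in gerbil and 4 pathway genes were. With a level of at least 10 in each species Fgf9 was -0.88 and not called, and 0 members were called higher in gerbil and 1 in mouse, as that minimum drops Fgf8, Fgf10, Fgf20 and Fgfbp1. Rescaled over all rows, without 73 mouse loci above 100000 FPKM, the Fgf20 (-3.21) and Fgfbp1 (-1.66) calls ended, leaving 2 members and 1 pathway gene higher in mouse. The limit of 100000, also used where split rows were summed, was chosen after seeing the data. That scaling lowers all levels against the pseudocount of 1. Otherwise the cause was not tested. The SEK minus PEK difference of Fgf9 was -0.27 with centring only.

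Leaving out 1 library gave -1.68 to -0.88 for Fgf3, -3.56 to -2.15 for Fgf4, 1.83 to 3.59 for Fgf8, -1.13 to -1.01 for Fgf9, 0.60 to 0.74 for Fgf10, -7.02 to -2.98 for Fgf20 (all but the value without E23 take its 0 as log2(0 + 1)) and -4.23 to -2.60 for Fgfbp1. It gave 1 member higher in gerbil each time and 4 to 5 in mouse, and 4 to 6 pathway genes higher in gerbil and 3 to 6 in mouse. Outside the main setting and centring only, the share of all kept genes called was not computed. Counts under those settings have no background share, and the rule with a library left out is easier to pass. A lone library of a species has no spread of its own. On levels with the length trend removed, the mean share of Fgf9 in gerbil was 47.2% and that of Fgf10 6.26%, and that of Fgf4 in mouse 18.3%. Of 178 alternative values, 144 kept direction and side of the threshold, stayed within the spread or, for counts, stayed close to the main count. Among the 144 are the ligand shares with split rows summed. These could not change, since each ligand is on 1 row in each table. Also among the 144 are calls with a library left out, which can end only through the refitted trend. No paired analysis was possible because the columns carry no replicate numbers. The precision of the low gerbil values of Fgfbp1, Fgf20, Fgf8, Fgf4 and Fgf10 was not measured, since the read counts in the gerbil table stayed out of this work. For mouse, depth is unknown.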
